A study of Glycine max with 22 samples.

Results

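The WRKY genes form one of the large transcription factor families of plants, and their transcripts were measured here in mature soybean (Glycine max) leaves, with 22 Affymetrix Soybean GeneChips. A member was any soybean probe set, that is, a group of short probes for one transcript or close relatives, whose only annotated gene symbol was WRKY followed by digits. This rule used no signal and found 103 of the 37593 soybean probe sets, which together name 52 of the 6029 soybean genes that a probe set names alone. A probe set was tested if it exceeded the signal floor of its array on at least 3 arrays, the floor being the 95th percentile of the oomycete and nematode probe sets printed on the same chip. Of the members, 97 passed, and they represent 47 genes. The 6 that did not pass belong to WRKY2, WRKY38, WRKY40, WRKY64 and WRKY29, the last with 2 probe sets, and they exceeded the floor on 0 to 2 arrays each. Several probe sets exist for 26 of the genes, and 18 probe sets carry a suffix (s_at or x_at) that the array design gives to probes matching more than one transcript, so signal from related family members cannot be separated there. The probe sets of a gene are numbered below by their mean log2 signal over the 22 arrays, probe set 1 being the brightest of that gene.

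Treated plants lost every terminal and axillary bud daily for 15 days, beginning at a plant age of 30 days, and their shoots then regrew for 15 days. Leaves came from untreated plants aged 30 days (C0, n = 4), from plants aged 45 days at the end of bud removal (D15, n = 3), from plants aged 50 days after 5 days of regrowth (R20, n = 3) and from plants aged 60 days after 15 days of regrowth (R30, n = 3). Untreated plants of the same ages gave C15, C20 and C30 (n = 3 each), and all groups grew in chambers under 16 h days. The number of plants behind a sample and the cultivar are not given in the sources used here, so the spread that p-values rest on may be technical. Signals are linear intensities that the authors had scaled to a common mean per array.

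WRKY proteins carry a conserved domain with a zinc finger and bind short DNA elements called W-boxes, which are frequent in promoters of defence genes. In plants they act downstream of mitogen-activated protein kinases and in salicylic acid and jasmonate signalling, and in leaves several of them are known as regulators of senescence. Many WRKY genes have W-boxes in their own promoters and regulate one another. The numbers of soybean WRKY genes do not correspond to those of Arabidopsis, so roles known for an Arabidopsis number are not carried over here.

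Between 63 and 95 of the WRKY probe sets exceeded the floor on any one array. R20 replicate 3 had an actin 3'/5' signal ratio, a measure of RNA integrity, of 136 against 2.29 to 8.37 on the other arrays, a soybean median of 38.2 against 57.1 to 81.3, and the fewest WRKY probe sets above the floor. VSPA, a vegetative storage protein gene, read 113 on C0 replicate 4 against 6889 to 8459 on the other C0 arrays, and 3542 on C15 replicate 1 against 134 and 42.9 on the other C15 arrays. Among the hybridisation controls, BioC exceeded BioB by 2.83 to 3.25 times on each array of C20 and of R20, and by 1.2 to 1.48 times elsewhere. R20 was tested only against C20. The ranking and map of all groups and the reading of WRKY51 by age, given further on, cross this difference. Of the 16 probe sets of the leaf mesophyll list (photosystem, light-harvesting and Rubisco activase genes), 14 or 15 exceeded the floor in every group. The nodule list (4 probe sets) had 1 to 3 and the seed list (9 probe sets) 0 to 2 above the floor. The summed nodule signal spread widely in C0 (285 to 1834) and C30 (33.8 to 2331), against 32.8 to 479 in the other groups. Its part in the WRKY differences was not tested.

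At the end of bud removal no WRKY transcript had passed the test. In D15 against C15, limma with Benjamini-Hochberg adjustment over all 32776 soybean probe sets called 0 of the 97 members, against 0.226% of all probe sets tested (0.146% higher and 0.0793% lower). At an unadjusted p under 0.05 there were 4 members with higher and 9 with lower signal, or 13.4% of members against 11.9% of all probe sets. By direction, these were 4.12% and 9.28% of members against 6.61% and 5.32% of all. The members' median log2 difference was -0.33 and that of all probe sets -0.04, and without C15 replicate 2 the members' median was 0.03.

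WRKY8 had the smallest p of this comparison. Its signal was 41.1, 32.2 and 15.5 on the D15 arrays and 30, 108 and 119.9 on the C15 arrays. The value of 15.5, on D15 replicate 3, was below the floor of that array (15.7). The groups overlapped through C15 replicate 1, and the log2 difference was -1.38 ± 0.47 (SE) with an adjusted p of 0.219. WRKY21, whose soybean protein is known to raise cold tolerance when overexpressed in Arabidopsis, read 90.4, 74 and 115 on its probe set 2 in D15 and 27.4, 29.5 and 11.2 in C15. These arrays did not overlap, yet the difference of 2.08 ± 0.76 also missed the threshold (adjusted p = 0.257, limma).

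After 5 days of regrowth, 23 of the 97 members differed from the controls, most of them with lower signal. In R20 against C20, 21 members of 12 genes were called lower (21.6% of members, 11.2% of all probe sets) and 2 members of 2 genes were called higher (2.06%, 6.64% of all). In either direction 23.7% of members and 17.8% of all probe sets were called. The genes called lower were WRKY4, WRKY8, WRKY9, WRKY22, WRKY23, WRKY24, WRKY32, WRKY36, WRKY39, WRKY41, WRKY44 and WRKY59. The genes called higher were WRKY25 and WRKY58. The median log2 difference was -0.74 over the members and -0.27 over all probe sets.

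These counts depended on the scaling and on single arrays. With arrays centred on their median, 9 members were called lower and 7 higher (5.25% and 11.7% of all probe sets), with medians of -0.28 for the members and 0.19 for all. After quantile normalization 9 were called lower and 1 higher (7.32% and 6.96%), with medians of -0.53 and -0.09. The same 9 of the 21 lower calls passed under both. Without R20 replicate 3, 6 were called lower and 1 higher (4.79% and 4.41%), without C20 replicate 2 there were 4 lower and 0 higher (2.32% and 2.42%), and without C20 replicate 1 there were 5 lower and 3 higher (4.18% and 3.76%). The summed signal of the leaf mesophyll list was 54913 to 62436 on the R20 arrays and 18824 to 33308 on the C20 arrays, and its part in the WRKY differences was not tested. In these whole-leaf samples, fewer cells of a type and less RNA per cell cannot be told apart.

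WRKY8 had the smallest p among the members called lower. Its probe set read 26.6, 18.9 and 16.7 in R20 and 109, 108 and 98.1 in C20, means of 20.7 ± 5.2 and 105 ± 5.98 (SD, n = 3). Every R20 array lay below every C20 array. WRKY8 exceeded the floor on 2 of the 3 R20 arrays (floors of 14.4, 15.2 and 21.8), so the size of its difference is limited by signal over background. The log2 difference was -2.31 ± 0.47 (SE, adjusted p = 0.00427, limma), and WRKY8 was the only member called under all 14 alternatives run on this comparison.

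WRKY24 has 3 tested probe sets and all of them were called lower, with log2 differences between -1.36 and -1.31. The one with the smallest p, probe set 2, read 78.3, 77.7 and 50 in R20 and 165, 219 and 147 in C20 (-1.36 ± 0.29, adjusted p = 0.00582). No array of R20 reached the lowest of C20. The other 2 probe sets of WRKY24 were no longer called under either rescaling.

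Of the 5 probe sets of WRKY23, 3 were called lower. Probe set 2 read 106, 80.2 and 73.5 in R20 and 461, 394 and 216 in C20, a log2 difference of -1.98 ± 0.53 (adjusted p = 0.0178, limma). Probe set 1 differed by -2.17 ± 0.59 (adjusted p = 0.0196). Probe set 4 was not above the floor on any R20 array and was at least 2.58-fold lower in R20 than in C20 (adjusted p = 0.0088). Without R20 replicate 3, the calls of probe sets 2 and 1 were lost (adjusted p = 0.0568 and 0.0596), and that of probe set 4 was not (0.0441).

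WRKY22 was called lower on 2 of 5 probe sets. Probe set 3 read 145, 139.8 and 14.6 in R20 and 412, 521 and 333 in C20. All R20 values were lower, and the lowest by far was that of R20 replicate 3. The log2 difference was -2.60 ± 0.60 (adjusted p = 0.00874), and -1.54 ± 0.39 without that array (adjusted p = 0.022). Probe set 5 was not above the floor in R20 and was at least 1.33-fold lower (adjusted p = 0.0116). It correlated at r = 0.08 to 0.35 with the other probe sets of WRKY22 over the 22 arrays. All 5 were fitted lower, between -2.60 and -0.47, and the smallest difference was that of the brightest, probe set 1 (-0.47 ± 0.53, adjusted p = 0.558, limma).

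Other calls rested on R20 replicate 3 to a larger degree. WRKY4 probe set 4 read 65.1, 44.9 and 1.17 in R20 and 143, 176 and 119 in C20. With that array the log2 difference was -2.95 ± 0.85 (adjusted p = 0.0244), and without it -1.40 ± 0.53 (0.0982). WRKY39 probe set 3 read 41.8, 45 and 1.37 in R20 against 199, 165 and 60.9 in C20. Its difference moved from -2.93 ± 0.86 (adjusted p = 0.026) to -1.52 ± 0.64 (0.134). WRKY36 probe set 1 was also lowest on that array, with 55.5, 49.1 and 1.36 in R20 and 126, 95 and 85.4 in C20 (-2.43 ± 0.81, adjusted p = 0.0445).

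The remaining lower calls had log2 differences between -2.59 and -0.80. WRKY41 read 155, 169 and 198 in R20 and 442, 504 and 399 in C20 (-1.36 ± 0.42, adjusted p = 0.0328), with a gap between the groups wider than either group's range. WRKY9 was called on 2 of 3 probe sets, WRKY32 on 2 of 3, and WRKY44 and WRKY59 on 1 each. None of these members, WRKY41 included, kept its call under median centring or quantile normalization.

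Against the direction of most calls, WRKY25 and WRKY58 were higher in R20. WRKY25 read 42, 46.3 and 18.5 in R20 and 12.7, 4.53 and 9.65 in C20. It was dim in both groups and its log2 difference was 1.87 ± 0.52 (adjusted p = 0.0214, limma). WRKY58, one of the brightest WRKY probe sets with a range of 490.4 to 2133 over the 22 arrays, read 990.4, 1244 and 2133 in R20 and 650.1, 672 and 713 in C20. The difference of 1.02 ± 0.35 (adjusted p = 0.047) was largest on R20 replicate 3, and without that array it was 0.71 ± 0.36 (adjusted p = 0.205). WRKY54, known to raise salt and drought tolerance when overexpressed in Arabidopsis, read 217, 234 and 107 in R20 and 857, 1015 and 178 in C20, and it was not called (-1.61 ± 0.65, adjusted p = 0.0865).

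**Figure D1:**
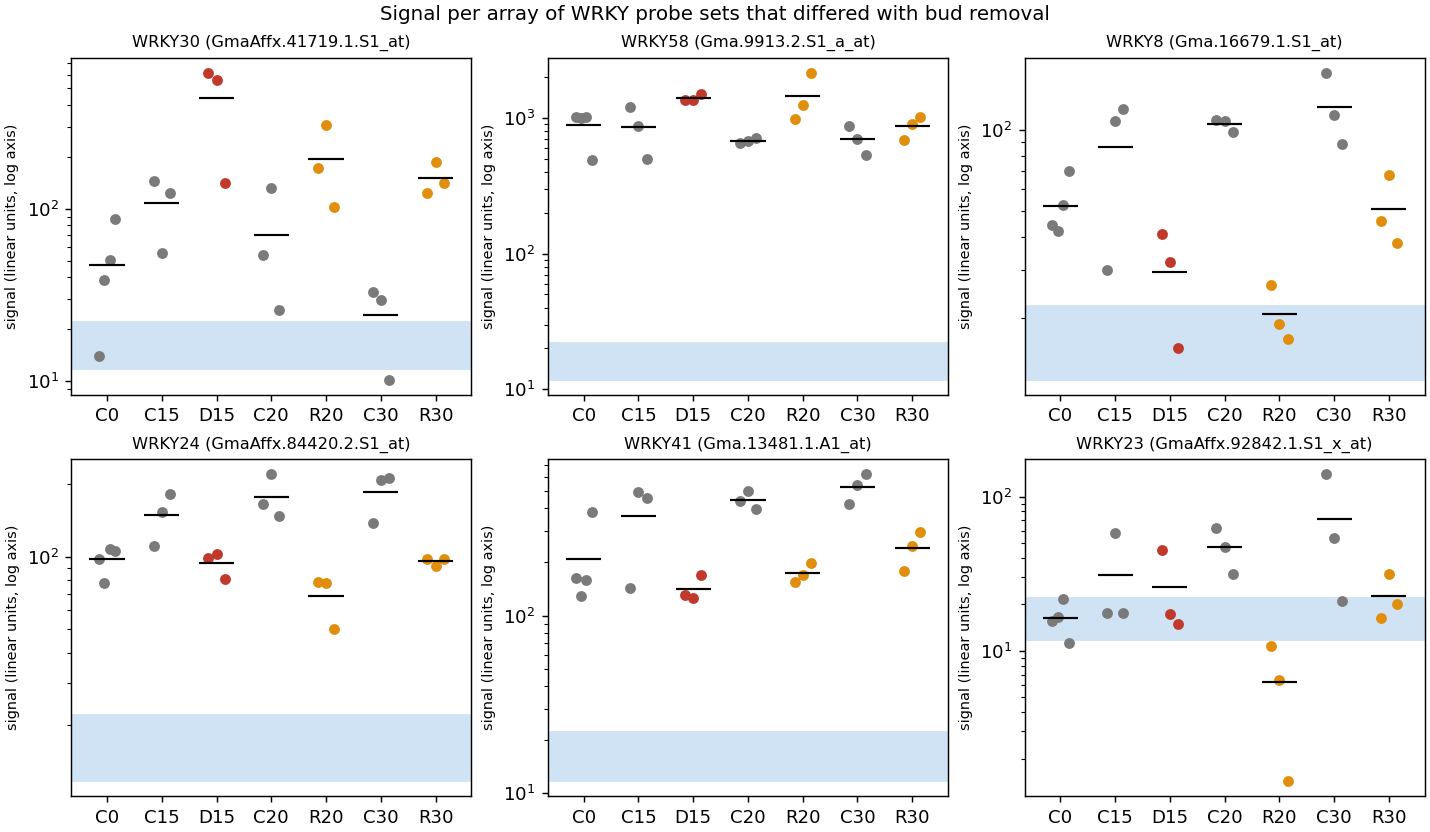
Signal of 6 WRKY probe sets on each of the 22 arrays (points, 1 per array; y axis, linear signal units on a log axis) by group, with the group mean as a bar and the range of the signal floors, 11.8 to 22.1, as a blue band. Untreated groups are grey, D15 red, and R20 and R30 orange; WRKY8 lay at 16.7 to 26.6 in R20 and at 98.1 to 109 in C20, and WRKY30 at 124 to 186 in R30 and at 10.2 to 33 in C30.

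After 15 days of regrowth a single member was called, and it was not among those called after 5 days. In R30 against C30, WRKY30 probe set 2 was called higher, 1.03% of members against 1.82% of all probe sets called higher and 2.22% called in either direction. It read 124, 186 and 142 in R30 and 33, 29.7 and 10.2 in C30, and the arrays did not overlap. The log2 difference was 2.72 ± 0.70 (adjusted p = 0.0475, limma). It passed under 6 of the 14 alternatives, and without C30 replicate 3 the difference was 2.21 ± 0.76 (adjusted p = 0.208).

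No member was called lower at this age, against 0.403% of all probe sets. Even so, the members' median was -0.25 against 0.05 for all probe sets, and 17 members (17.5%) were lower in R30 with no overlap between the arrays, against 9.02% of all probe sets. Higher without overlap were 7 members (7.22%), against 13.1% of all. WRKY8 read 45.9, 68.2 and 37.8 in R30 and 162, 113 and 88.4 in C30. WRKY24 (probe set 2) read 98.2, 91.1 and 97.5 in R30 and 138, 207 and 211 in C30. Both belonged to the non-overlapping members, and neither was called.

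**Figure D2:**
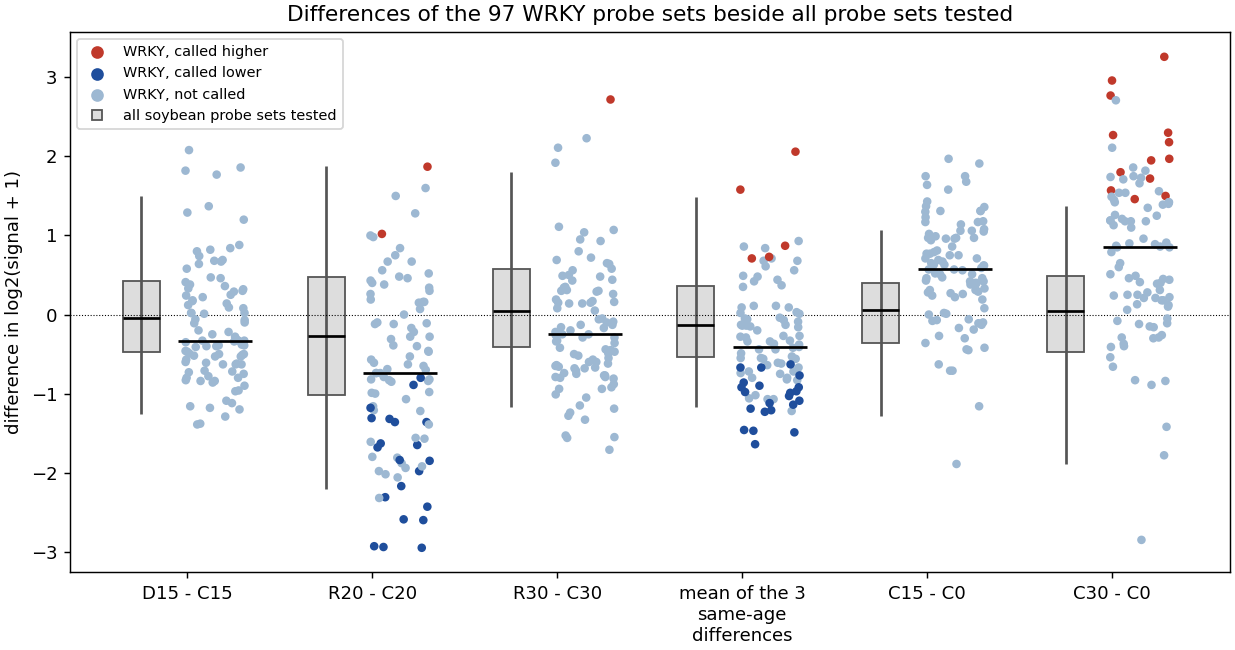
Log2 difference of each of the 97 tested WRKY probe sets (points) in 6 comparisons, beside a grey box of all 32776 probe sets tested (box, quartiles; line, 5th to 95th percentile). Black bars are medians; the WRKY medians lay at -0.33, -0.74, -0.25, -0.41, 0.57 and 0.86 from left to right, and dark points are members called at an adjusted p under 0.05.

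Because few members passed at single ages, the 3 same-age differences were also averaged in 1 contrast of the same fit, a comparison chosen after seeing the data. It called 22 members of 12 genes lower (22.7%, 11.3% of all probe sets) and 5 members of 4 genes higher (5.15%, 11.1% of all), and 22.5% of all probe sets in either direction. All 27 had the same sign at all 3 ages, but being chosen by the mean of these differences favours that, so it is not separate evidence. The members' median was -0.41, with -0.13 for all probe sets, and with median centring 17 were called lower and 6 higher (7.4% and 13.6% of all). Over all tested members, 40 (41.2%) were fitted lower at all 3 ages, against 29% of all probe sets, and 13 (13.4%) higher, against 22.9%.

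WRKY8 again had the smallest p, with a mean difference of -1.64 ± 0.27 (SE, adjusted p = 0.000352). It was followed by WRKY24 (probe set 2, -0.97 ± 0.17, adjusted p = 0.000533) and WRKY41 (-1.23 ± 0.24, adjusted p = 0.00155). WRKY41 read 129.8, 125 and 169 in D15 and 143, 492 and 459.7 in C15, and 177, 247 and 295 in R30 against 424, 543 and 621 in C30. Except for C15 replicate 1, each treated array of WRKY41 lay below all controls of its age.

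WRKY30 stood on the other side. Its 2 probe sets rose by a mean of 2.06 ± 0.41 (adjusted p = 0.00155) and 1.58 ± 0.40 (adjusted p = 0.00899) on the log2 scale. On probe set 2 the D15 arrays read 610.3, 559.6 and 140.2 and the C15 arrays 145, 55.1 and 124. In R20 it read 173, 306 and 102, and in C20 53.8, 132 and 26. The arrays overlapped at these 2 ages and separated in R30 against C30. Probe set 1 read 1141, 833 and 309.7 in D15 against 185, 118 and 300.4 in C15, and the 2 probe sets correlated at r = 0.96 over the 22 arrays.

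The other members called higher in the mean were WRKY58 (0.71 ± 0.20), WRKY37 (probe set 1, 0.87 ± 0.30) and 1 probe set of WRKY4 (probe set 3, 0.73 ± 0.25). The call of WRKY37 held under 11 of 26 alternatives, and its probe set 2 was at 0.11 in the mean. The 2 probe sets of WRKY37 correlated at r = 0.25 and differed in sign in R20 (1.28 and -1.07). WRKY10 (probe set 1), WRKY28 (probe set 1) and WRKY62 were called lower in the mean and in no same-age comparison, at -0.67 ± 0.23, -0.99 ± 0.26 and -1.49 ± 0.51. WRKY10 and WRKY62 kept this call under 10 and 11 of 26 alternatives, and under neither median centring nor quantile normalization. WRKY28 kept it under all 26, but its probe set 2 was at -0.15 and uncalled. The average of D15 and R30 alone, which leaves out the R20 and C20 arrays and was also chosen after seeing the data, called 3 members lower and 2 higher (2.57% and 4.83% of all probe sets). These were WRKY8 (-1.31 ± 0.33, adjusted p = 0.0202), WRKY24 (-0.78 ± 0.21, 0.0256), WRKY41 (-1.17 ± 0.30, 0.0209) and both probe sets of WRKY30 (2.29 ± 0.50, 0.0084, and 1.87 ± 0.49, 0.0253).

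The change of the treatment difference between ages was tested directly. Neither from D15 to R20 nor from D15 to R30 did limma call a member (0 of 97, 0% of all probe sets in both). At an unadjusted p under 0.05 there were 11 members (11.3%, 11.3% of all) for R20 and 0 (2.24% of all) for R30. The smallest p belonged to WRKY23 probe set 4 for R20 (-2.74 ± 0.96, adjusted p = 0.372) and to WRKY59 probe set 2 for R30 (1.99 ± 1.21, adjusted p = 1). The calls at R20 and their scarcity at the other ages were thus not shown to be a difference between ages.

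**Figure D3:**
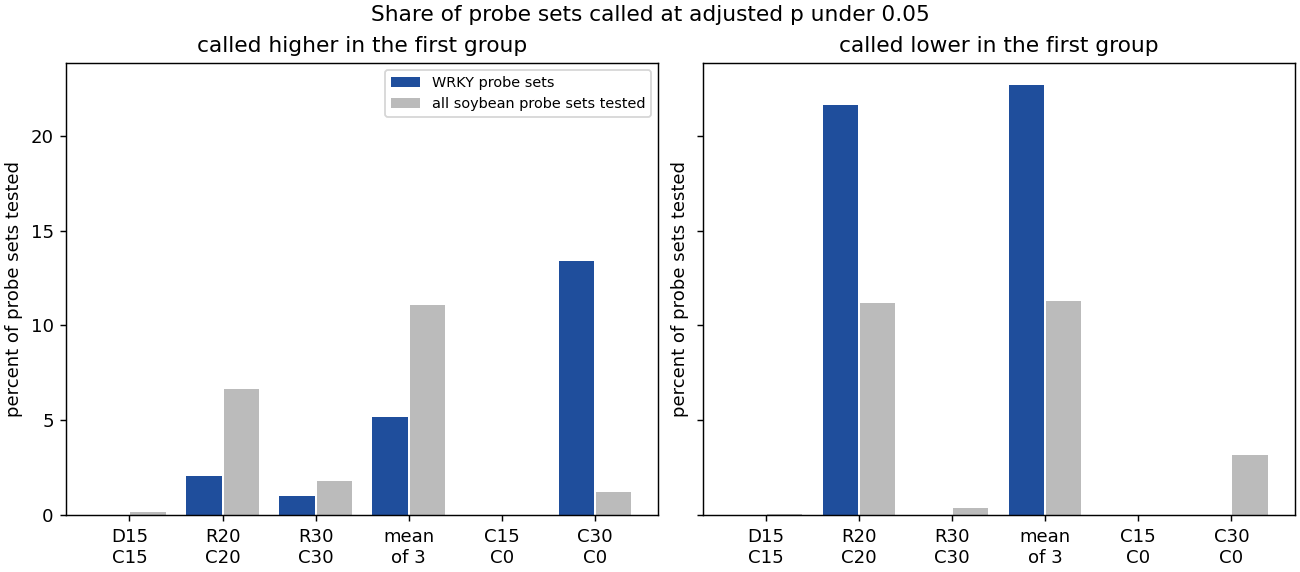
Percent of the 97 WRKY probe sets (blue) and of all 32776 soybean probe sets tested (grey) called higher (left) or lower (right) in the first-named group of 6 comparisons, at an adjusted p under 0.05. WRKY shares of lower calls were 21.6% in R20 against C20 and 22.7% in the mean of 3, and the share of higher calls was 13.4% in C30 against C0.

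In untreated plants, 13 of the 97 members were higher in the oldest leaves than in the youngest. C30 against C0 called 13 members of 8 genes higher (13.4%, 1.2% of all probe sets) and 0 lower (3.15% of all), with 4.35% of all called in either direction. At an unadjusted p under 0.05 there were 38 higher (39.2%, 8.09% of all) and 4 lower (4.12%, 10.4% of all). The genes called higher were WRKY19, WRKY39, WRKY41, WRKY48, WRKY51, WRKY52, WRKY53 and WRKY62. The members' median log2 difference was 0.86, against 0.05 for all probe sets, and 12 of the 13 calls held under both median centring and quantile normalization.

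WRKY51 had the 3 smallest p-values, 1 for each of 3 of its 4 probe sets. Probe set 2 read 76.4, 54.3, 145 and 173 in C0 and 597, 367 and 570.4 in C30, with no overlap. The log2 difference was 2.30 ± 0.41 (adjusted p = 0.00435, limma). Probe sets 1 and 3 differed by 2.27 ± 0.42 and 2.18 ± 0.42, and probe set 4 by 1.49 ± 0.61 without a call (adjusted p = 0.183). On probe set 2 the C15 and C20 arrays, at 153 to 295 and 272 to 495, lay between the means of C0 and C30, which were 112 and 512. C20 differs from C0, C15 and C30 in the ratio of BioC to BioB, so its place in this order crosses that difference.

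WRKY53 read 27.4, 103, 109 and 441 in C0 and 1481, 605 and 689 in C30 (2.96 ± 0.69, adjusted p = 0.0203). WRKY62 read 10.7, 16.1, 20.4 and 31.6 in C0 and 298, 352 and 58.7 in C30 (3.26 ± 0.82, adjusted p = 0.0295). WRKY19 probe set 1 read 47.7, 116, 365 and 489 in C0 and 1607, 1346 and 833 in C30 (2.77 ± 0.75, adjusted p = 0.042). In all 3 the groups did not overlap, although the C0 arrays of WRKY53 and WRKY19 lay far apart. The probe sets of WRKY62 and WRKY19 share the stem of their identifiers, and whether they read related transcripts was not tested.

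WRKY48 was called on 2 of 3 probe sets (1.95 ± 0.47 and 1.72 ± 0.46), WRKY52 on both of its own (1.57 ± 0.41 on probe set 1) and WRKY39 on 2 of 4 (1.97 ± 0.50 and 1.80 ± 0.50). Probe set 2 of WRKY48 was at -0.29 ± 0.37 and correlated at r = 0.06 and 0.07 with the other 2 over the 22 arrays. WRKY41 was called too (1.46 ± 0.39, adjusted p = 0.0399).

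No member was called lower with age. WRKY60 read 458, 309, 666 and 106 in C0 and 81.3, 126 and 75.1 in C30 on probe set 1 (-1.78 ± 0.63, adjusted p = 0.124). Its probe set 2 was not above the floor on any C30 array and was at least 2.24-fold lower, also uncalled (adjusted p = 0.125). C0 replicate 4 was the low C0 array of both probe sets, and without it both were called (adjusted p = 0.0223 and 0.0334). WRKY55 (-1.42 ± 0.56) and WRKY43 (-0.89 ± 0.35) followed with adjusted p of 0.171 and 0.172.

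The age calls depended on the arrays of C0 and C30. Without C0 replicate 1 or without C0 replicate 2 there were 3 member calls (3.09%, against 1.07% and 1.17% of all probe sets in these fits). Without C30 replicate 1 there were 6 (6.19%, 2.66% of all) and without C30 replicate 2 there were 4 (4.12%, 2.07% of all). Without C0 replicate 4 there were 25 (25.8%, 9.22% of all). A limma fit of the 7 arrays of C0 and C30 alone called 0 members and 0.22% of all probe sets, and at an unadjusted p under 0.05 it had 34 members higher and 4 lower (14.1% of all probe sets in either direction). The leaf mesophyll markers summed to 57541 to 86437 in C0 and 29567 to 55992 in C30, and their part in the difference was not tested.

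C15 against C0 called 0 members and 0% of all probe sets. At an unadjusted p under 0.05, 15 members (15.5%) were higher and 0 lower, against 4.23% and 5.31% of all probe sets, and the members' median was 0.57 with 0.05 for all. The smallest p-values were those of WRKY48 (1.75 ± 0.46 and 1.68 ± 0.47, adjusted p = 0.344 and 0.358) and WRKY52 (1.31 ± 0.38 and 1.37 ± 0.41, adjusted p = 0.358 and 0.36). On probe set 3, WRKY48 read 56.7, 103, 180.4 and 221 in C0 and 278, 723 and 366 in C15, without overlap. With C0 replicate 4, C15 replicate 1 and R20 replicate 3 left out of the fit, 20 members were called higher and 1 lower at this age (3.56% and 5.03% of all probe sets).

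**Figure D4:**
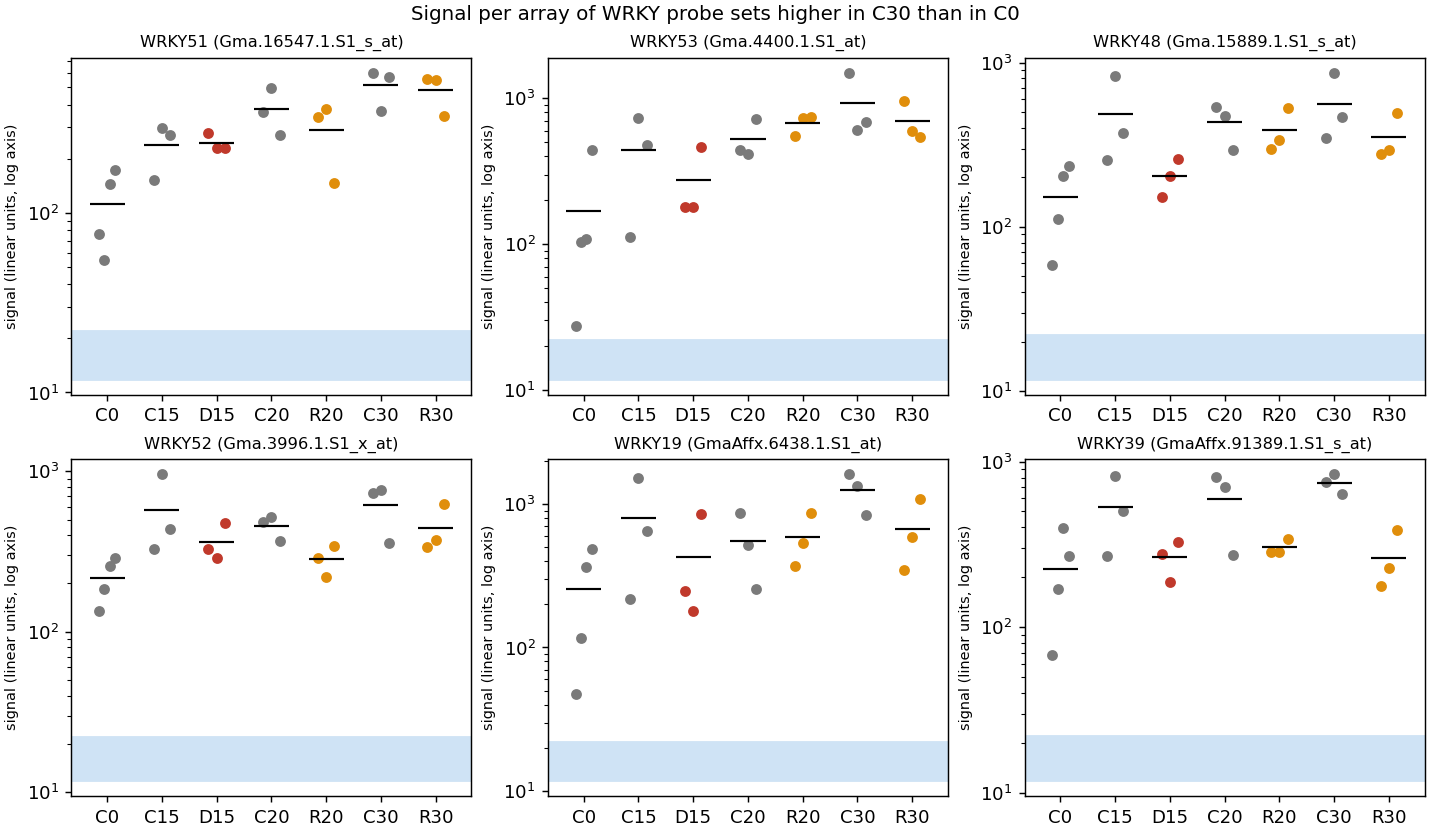
Signal of 6 WRKY probe sets called higher in C30 than in C0, on each of the 22 arrays (points; y axis, linear signal units on a log axis), with group means as bars and the range of the signal floors as a blue band. Untreated groups are grey, D15 red, and R20 and R30 orange; the WRKY51 probe set lay at 54.3 to 173 in C0 and at 367 to 597 in C30.

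The 13 members called higher with age, which belong to 8 genes, were then read in the same-age comparisons. In D15 against C15, 11 of the 13 were fitted below 0, as were 58 of the 97 members (59.8%) and 52.7% of all probe sets. In R20 against C20 these were 10 of 13, 70 of 97 (72.2%) and 60% of all. R30 against C30 shares the C30 arrays by which the 13 were chosen, so no count is given for it. Of the 13, WRKY41 and 1 probe set of WRKY39 were called lower in R20 against C20, and none in D15 against C15. WRKY51 differed in sign between its probe sets at R20, from -0.99 to 0.98. In R30 its probe set 2 read 553, 547 and 344 against 597, 367 and 570.4 in C30, with the groups overlapping. Those C30 arrays are also among the ones by which it was chosen.

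Ranked by group means, the C30 group was the highest for 41 of the 97 members (42.3%), against 15.3% of all probe sets tested. The lowest group was R20 for 41 members (42.3%, 29.3% of all) and C0 for 24 (24.7%, 12% of all). The R20 means include replicate 3, the array with the fewest WRKY probe sets above the floor, and its part in this ranking was not tested. D15 was the highest group for 15 members (15.5%), close to its 15.2% among all probe sets. In the map of group means, both probe sets of WRKY30 and 1 of WRKY4 were highest in D15 and lowest in C30.

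**Figure D5:**
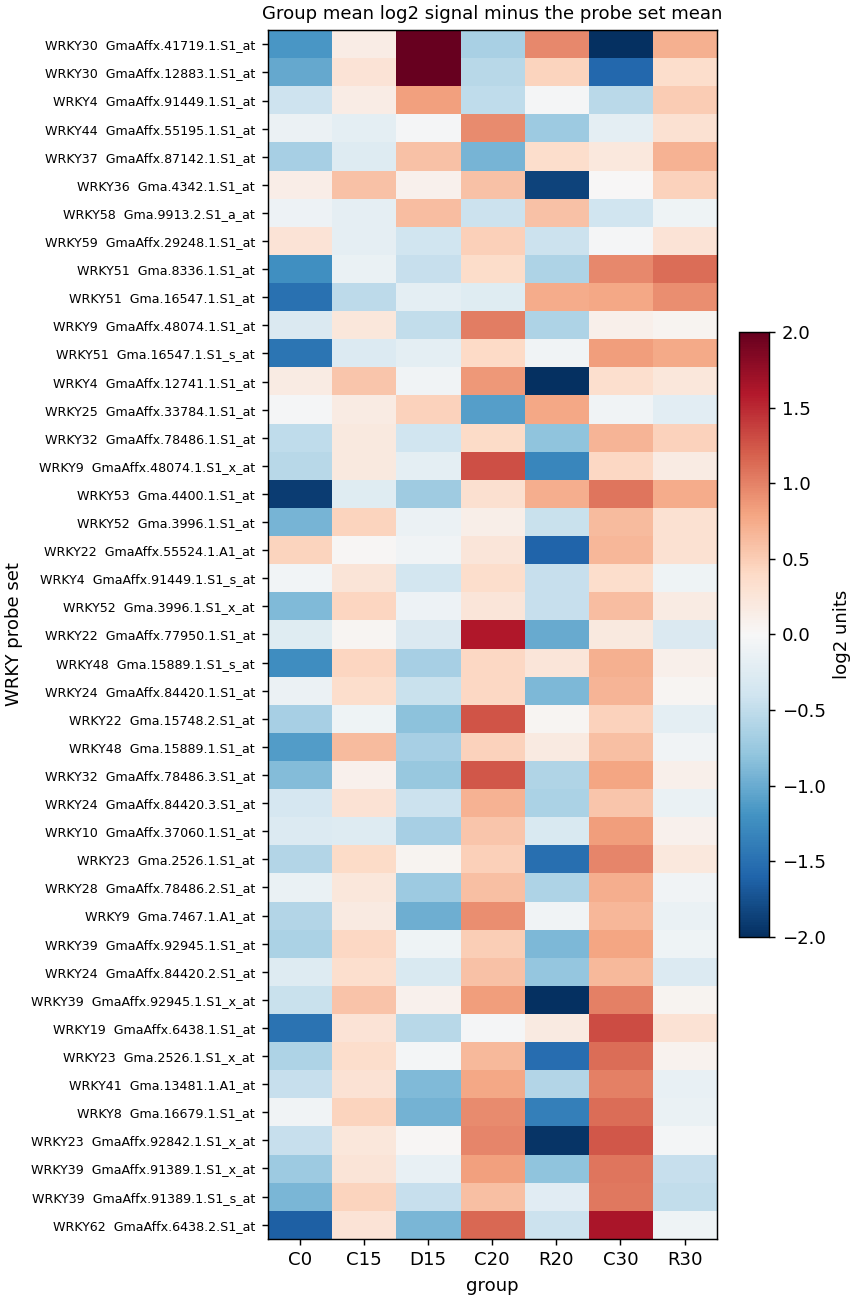
Group mean log2 signal minus the mean over groups for the 43 WRKY probe sets called in at least 1 comparison (rows) in the 7 groups (columns), with colours cut at -2 and 2 log2 units. Rows are ordered by the difference of R30 from C30, with the most positive at the top; both WRKY30 probe sets, at the top, were lowest in C30 and highest in D15.

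The comparisons planned for this design called 35 members of 21 genes at least once (36.1%, 20.8% of all probe sets). With the mean of the same-age differences, chosen after seeing the data, these were 43 members of 24 genes (44.3%, 30% of all), and 54 were called in none. Probe sets of the same gene often moved together but not always. Over the 22 arrays the median correlation of log2 signals was r = 0.64 for 90 pairs from the same gene (range -0.39 to 0.98) and r = 0.24 for 4566 pairs from different genes. All pairs share the arrays and their scaling, and these values are descriptions. WRKY52 (r = 0.98) and WRKY24 (0.78 to 0.84) were uniform, whereas the 5 probe sets of WRKY4 spanned -0.39 to 0.57. For WRKY4, the mean treatment difference was -0.63 ± 0.14 on probe set 2 and 0.73 ± 0.25 on probe set 3, both called, so no direction can be given for that gene.

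Among pairs from different genes, the highest correlation was that of WRKY4 probe set 4 with WRKY36 (probe set 1, r = 0.96), both at their lowest on R20 replicate 3. WRKY39 probe set 4 correlated with 3 probe sets of WRKY23 at 0.92 to 0.93, and WRKY16 with both of WRKY52 at 0.92 and 0.93. WRKY16 and WRKY52 also share an identifier stem.

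Genes of the pathways in which WRKY factors act were read beside them. The jasmonate list held 30 tested probe sets of 12 genes: lipoxygenases (LOX and VLX, several with repeated probe sets), AOC, AOS and COI1. In R20, 18 of these probe sets rose and 3 fell (6.64% and 11.2% of all probe sets). In R30, 16 rose and 0 fell (1.82% and 0.403% of all). Most that rose at either age were of lipoxygenases. D15 had 0 calls (0.226% of all), and C30 against C0 had 11 lower (3.15% of all). The 3 that fell in R20 belong to COI1, the jasmonate receptor subunit (-1.02 ± 0.25, -1.87 ± 0.56 and -1.31 ± 0.43), and the other 3 COI1 probe sets, at -0.67 to -0.56, were not called. Of the 13 pathogenesis-related probe sets, 2 of PR1-7 rose in R20 (3.02 ± 0.90 and 2.76 ± 0.89). None of the list was called in D15 or R30, and the OLPa probe sets lay between -0.49 and 0.47 in R20. The list's medians were 1.61, 1.66 and 1.79 at the 3 ages, against -0.04, -0.27 and 0.05 over all probe sets. In the mitogen-activated protein kinase list, both called probe sets were of MAPKK2, a kinase kinase, in R20 (0.90 ± 0.25 and 1.17 ± 0.34, of 5 tested). The salicylic acid list held 10 probe sets of PAL2.1, EDS1-2, PAD4, NDR1A, NDR1b and RIN4c, and none of NPR1. In R20, 1 probe set of PAL2.1, for phenylalanine ammonia-lyase, rose (1.98 ± 0.67), while its other probe sets were at -0.51 ± 1.52 and -0.08 ± 0.39 without a call. RIN4c fell (-1.52 ± 0.38).

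The senescence list held SGR1, SGR2, VPE, VPE2, CYSP1 and CYSP2, and no gene of abscisic acid synthesis or perception. Of its 7 tested probe sets, 2 fell in D15, both of VPE2, a vacuolar processing enzyme (-3.26 ± 0.64 and -3.34 ± 0.67). The list's medians were -2.22, -1.08 and -1.40 in D15, R20 and R30, and 1.33 in C30 against C0, where SGR1, which acts in chlorophyll breakdown, rose by 3.20 ± 0.82. Over all probe sets these medians were -0.04, -0.27, 0.05 and 0.05. The list of possible WRKY partners held 18 probe sets of HSP90, 14-3-3 (SGF14) and RAR1 genes, and none of a VQ protein. Of these, 1 probe set of HSP90-1 rose in R20 (3.14 ± 0.86), and the other 6 of that gene lay between -0.56 and 0.24 without a call. The list's median in R20 was -0.48, against -0.27 over all probe sets. All differences in these lists are on the log2 scale with SE from the same limma fit.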

How the data were processed

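The authors' deposited table holds 1 linear intensity per probe set for 61170 probe sets on each of 22 arrays of mature leaf total RNA, labelled with biotin by the one-cycle protocol, per the labels' protocols. The deposited intensity values have a 2% trimmed mean of 125.009 to 125.015 on every array, so they had been scaled; the sources used here do not name the summarising software. Groups followed the sample titles. The highest correlation between 2 arrays was 0.961, so none was a repeat deposit. Probe sets were named from the platform annotation, and all 52 WRKY genes were found in the RefSeq gene table under the same symbol; 6 probe sets naming WRKY and other symbols were left out. No sequences or coordinates were used, so the planned reading of protein and promoter features was not run.

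Soybean probe sets above the floor (95th percentile of 23350 oomycete and nematode probe sets per array) on at least 3 arrays, 32776 in all, were tested as log2(value + 1) with limma 3.58.1 in R 4.3.3: 1 coefficient per group over all arrays, eBayes with a variance trend, and Benjamini-Hochberg adjustment per comparison, called at an adjusted p under 0.05. The added 1 shrinks the differences of dim probe sets, but readings below the floor were kept as they were and can widen them. Where a probe set was never above the floor in a group, the fold is a bound, the mean log2 of the brighter group minus that of the dim one with each signal raised to at least its floor. In R20 against C20, WRKY23 probe set 4 was fitted at -2.94 on the log2 scale, and its bound was 2.58-fold. Precision is limited by the number of arrays. The members and lists were chosen with earlier results of these data known. Named were the members called at the same age (up to 10 per direction by p, or the smallest p), the 4 smallest p per direction with age, the smallest p per interaction, the brightest probe sets and those of genes with 3 or more. Others named here, such as WRKY10, WRKY21, WRKY28, WRKY37 and WRKY54, were chosen after their values were seen. Alternatives were median centring, quantile normalization, a pseudocount of 16, no floor filter, no variance trend, replicate number as a block, only the groups compared, and leaving out arrays. The fit was tested on simulated data. The samples came from 3 replicate time courses, per the series' design text, but no label ties a replicate number to one of them. Same-numbered samples did not deviate together throughout any comparison (r from -0.16 to 0.27 at the same age and from -0.26 to 0.47 with age), so the numbers were not taken to pair them.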

Additional observations from a re-analysis of the deposited data

Results flagged for a closer look

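In C0, 3 signals stood apart from those of the other arrays by Dixon's test at the 95% level, out of 29 named probe sets examined, and chance marks about 1 in 20 groups. WRKY58 read 490.4 on C0 replicate 4 and 1007 to 1025 on the other 3 arrays. WRKY6 read 248 on the same array and 691 to 769 on the others. WRKY43 read 512 on C0 replicate 3 and 359 to 371 on the others. The first 2 lie on the array that also stood apart in VSPA (113 against 6889 to 8459), and the part of that array's difference in them was not tested.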

How the results depend on the processing

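The check of sign covered only the smallest-p probe sets of each comparison, as named by the rule above, and not every one printed here. None of those checked changed sign under any alternative run. The members' median of D15 against C15 did, from -0.33 to 0.03 without C15 replicate 2, and the median of all probe sets did with median centring in R20 against C20 (-0.27 to 0.19) and R30 against C30 (0.05 to -0.01). In D15 against C15, the 0 calls became 5 (1 higher, 4 lower) without the 3 arrays that stand apart (C0 replicate 4, C15 replicate 1, R20 replicate 3) and ranged from 0 to 2 when 1 array was left out. The 23 calls of R20 against C20 became 10 after quantile normalization, 13 without the 3 arrays and 4 with only the groups compared, and ranged from 4 to 24 with 1 array left out. Without R20 replicate 3 there were 7, and without C20 replicate 1 there were 8. The single call of R30 against C30 became 0 with a pseudocount of 16, without the floor filter or without the variance trend, became 4 without the 3 arrays, and ranged from 0 to 2 with 1 array left out. The 0 calls of C15 against C0 became 2 with the replicate block and 21 without the 3 arrays. The 13 calls of C30 against C0 became 24 with the replicate block (21 higher, 3 lower), in which C0 replicate 4 has no partner and does not contribute, 32 without the 3 arrays (29 higher, 3 lower) and 0 with only the groups compared, and ranged from 3 to 25 with 1 array left out. The 27 calls of the mean of the 3 same-age differences became 5 with D15 and R30 alone and ranged from 17 (without C20 replicate 2) to 29. The fits of only the groups compared, without the 3 arrays and with 1 array left out rest on fewer arrays; the other causes were not tested. The replicate block gave 26 calls in R20 against C20, 1 in R30 against C30, 0 in D15 against C15 and 30 in the mean. Both interactions had 0 member calls under every alternative. The share of all probe sets called is given above for some of these fits and is not given for the others. Where it is not given, a changed member count may only follow a changed share over all probe sets. Over the 23 members called in R20 against C20, 133 of 322 alternative values lost the call, over the 13 of C30 against C0 61 of 195, and for the 1 of R30 against C30 8 of 14. Probe sets near the floor, such as those of WRKY34, are limited by signal over background.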
